A study of Mus musculus with 12 samples.

Results

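The expanded tumor clonotypes are T cell receptor (TCR) clonotypes that each held 0.1% or more of the TRAC or TRBC unique molecular identifiers (UMIs) of a tumor library. A clonotype is a chain with one V region, one J region and one CDR3 nucleotide sequence, and TRAC and TRBC stand for the α and β chain. By this rule 351 members were found among 262239 TRAC and TRBC clonotypes of the 4 tumor libraries, and among 1478468 of all 12 libraries. They were 152 in the control IgG tumor, 155 in the αCSF1R tumor, 38 in the IL-10-Fc tumor and 6 in the BF10 tumor. Because members were selected on their tumor UMI counts, tumor shares are given only as a description. The CD8+ T cells came from wild-type mice with MTCQ1-2 (Q1-2) tumors, a head and neck cancer line that arose in tongue carcinogenesis and is paired with the C57BL/6 strain in the study. The methods give mice of 6 to 8 weeks. Mice received control IgG, IL-10-Fc (interleukin-10 joined to an antibody Fc), αCSF1R (an antibody to the macrophage receptor CSF1R) or BF10 (the αCSF1R antibody fused to IL-10). Per the labels each treatment had 3 doses at 3-day intervals, at an equivalent of 30 mg/kg. Each library was made from 100 ng RNA mixed from 3 mice of one treatment and tissue, namely tumor, spleen or tumor-draining lymph node (tdLN). There was 1 library per group, so no spread between replicates exists, and no difference between treatments was tested. A clonotype cannot be assigned to one of the 3 mice, nor an α chain to its β chain, and more cells and more TCR RNA per cell cannot be told apart.

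A T cell makes its receptor by joining one V and one J gene segment in the α chain, and a V, a D and a J segment in the β chain. Bases are trimmed and added where the segments meet, and this junction lies in the CDR3, the loop that touches the peptide held by an MHC molecule. Cells that descend from one T cell keep the same CDR3 nucleotide sequence, whereas the same CDR3 protein made from different nucleotide sequences comes from separate rearrangements. Rearrangements that need few added bases are known to recur between animals and are called public.

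The tumor libraries held 32784 (αCSF1R) to 175080 (BF10) TRBC UMIs and 23650 (αCSF1R) to 117661 (BF10) TRAC UMIs, so the 0.1% threshold stood at 33 to 176 TRBC UMIs. They listed 2493 TRBC clonotypes in αCSF1R, 9466 in control IgG, 54779 in IL-10-Fc and 90267 in BF10. Intervals are 95% Wilson intervals and cover counting error only. Cd8a and Cd8b1 were not measured in these TCR libraries, so the CD8 label could not be checked directly. The cell type label of all 12 libraries reads CD8 T cells, but the titles of the 4 tdLN samples, unlike the others, do not name CD8, and these were taken as CD8 T cells from that label. UMIs of the γδ chains TRGC and TRDC were 4.27% of all UMIs in the control IgG tumor (4.18 to 4.36), 8.93% in the αCSF1R tumor (8.70 to 9.15), 0.873% in the IL-10-Fc tumor and 0.898% in the BF10 tumor. The chains were counted together, and these shares do not measure how many γδ T cells were present. The libraries with many members were those with more γδ UMIs, and the part of other cells in this was not tested. Of the TRAC members, 0 met the invariant NKT definition (Trav11 or Trav11d with Traj18) and 0 the MAIT definition (Trav1 with Traj33).

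The sequences below carry the main patterns: the leading β clonotype of each tumor library, and nucleotide versions of the β-chain CDR3 proteins that were expanded most often. Germline V and J bases are in lower case, and the capitals mark the bases between the germline V and J ends, where D bases and added bases lie.
Control IgG, leading clonotype, Trbv5-Trbj1-2: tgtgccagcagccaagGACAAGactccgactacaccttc
IL-10-Fc, leading clonotype, Trbv14-Trbj2-1: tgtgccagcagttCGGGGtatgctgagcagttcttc
αCSF1R, leading clonotype, Trbv15-Trbj1-3: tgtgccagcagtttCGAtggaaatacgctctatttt
BF10, leading clonotype, Trbv3-Trbj2-7: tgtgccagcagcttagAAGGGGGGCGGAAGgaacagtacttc
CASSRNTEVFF version 1: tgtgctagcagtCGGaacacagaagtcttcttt
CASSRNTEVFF version 3: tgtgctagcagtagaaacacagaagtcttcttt
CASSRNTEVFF version 4: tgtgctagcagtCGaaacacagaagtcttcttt
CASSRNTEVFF version 5: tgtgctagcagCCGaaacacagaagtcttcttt
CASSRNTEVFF version 6: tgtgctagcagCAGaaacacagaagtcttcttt
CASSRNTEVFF version 7: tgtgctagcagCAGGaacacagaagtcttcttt
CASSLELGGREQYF version 1: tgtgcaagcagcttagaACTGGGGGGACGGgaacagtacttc
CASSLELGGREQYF version 2: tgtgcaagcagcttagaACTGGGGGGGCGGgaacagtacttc
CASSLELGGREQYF version 3: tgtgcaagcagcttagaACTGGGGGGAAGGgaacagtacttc
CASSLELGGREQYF version 4: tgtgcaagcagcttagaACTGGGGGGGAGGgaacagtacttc
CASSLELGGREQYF version 5: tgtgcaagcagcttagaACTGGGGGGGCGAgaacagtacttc
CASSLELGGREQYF version 6: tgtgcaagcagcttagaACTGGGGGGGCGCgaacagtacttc

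The steepness of the ranking differed between the libraries. In the control IgG tumor the Trbv5 clonotype held 11032 UMIs, 10.6% of the TRBC UMIs (10.4 to 10.8), followed by members with 4434, 2789, 1950 and 1843 UMIs. The αCSF1R tumor had no member of that size, and its leading clonotypes held 1636, 1496, 1303, 1152 and 1103 UMIs, or 4.99% to 3.36%. In the IL-10-Fc tumor the first 5 lay close together, from 476 to 384 UMIs (0.366% to 0.295%). The BF10 tumor had 3 TRBC members, with 296, 290 and 199 UMIs. At 1% or more of the chain's UMIs there were 12 TRBC and 8 TRAC members in the control IgG tumor, 17 and 13 in the αCSF1R tumor, 0 and 1 in the IL-10-Fc tumor and none of either chain in the BF10 tumor. Members were 0.803% of the TRBC clonotypes of the control IgG tumor, 3.05% in αCSF1R, 0.0420% in IL-10-Fc and 0.00332% in BF10.

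**Figure D1:**
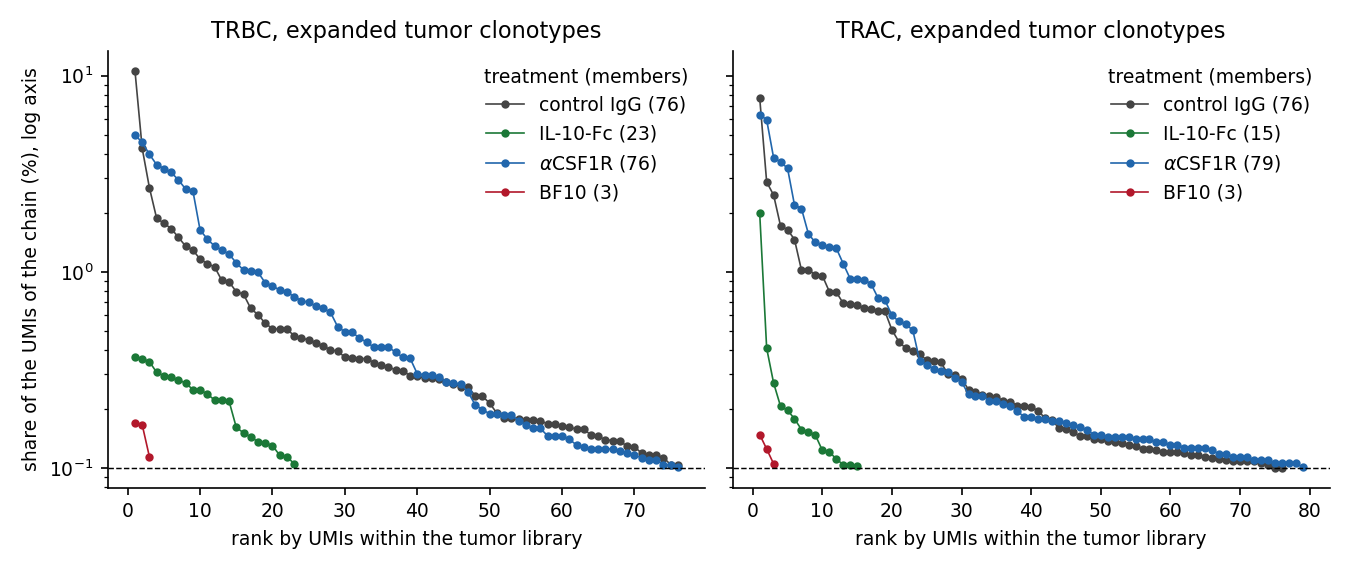
Share of the UMIs of the chain (log axis) against rank for every expanded clonotype of the 4 tumor libraries, TRBC left and TRAC right; the dashed line is the 0.1% threshold. Control IgG and αCSF1R run over 76 to 79 ranks, IL-10-Fc over 23 and 15, and BF10 over 3 and 3.

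The leading α chains were Trav9n-3 with Traj9 in the control IgG tumor (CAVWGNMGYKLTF, 6151 UMIs, 7.70%) and Trav9n-3 with Traj33 in the αCSF1R tumor (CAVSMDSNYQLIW, 1497 UMIs, 6.33%). In the IL-10-Fc tumor it was Trav7d-2 with Traj22 (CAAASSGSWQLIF, 1971 UMIs, 1.99%). That clonotype was far above the next in its library, which had 403 UMIs. The 3 TRAC members of the BF10 tumor had 174, 147 and 123 UMIs, and the first 2 are one CDR3 sequence listed under 2 V assignments. Such splits of one CDR3 over near-identical V genes affected TRAC only: 5 CDR3 sequences made 11 members in the control IgG tumor, 8 made 16 in αCSF1R, and 1 made 2 each in IL-10-Fc and BF10. Distinct TRAC CDR3 sequences among members therefore numbered 70 in control IgG, 71 in αCSF1R, 14 in IL-10-Fc and 2 in BF10. No TRBC member had more than one V gene listed.

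Close to the threshold, the counting interval of the last member spanned 0.1% in every library and chain, so membership there is not sharp. The last TRBC member of the control IgG tumor was a Trbv26-Trbj2-5 clonotype with 107 UMIs (0.1028%), and the first outside was a Trbv19-Trbj2-4 clonotype with 102 (0.0980%). In the αCSF1R tumor these were 33 and 32 UMIs, in the IL-10-Fc tumor 137 and 123. In the BF10 tumor the gap was wider, at 199 UMIs (0.1137%) inside and 127 (0.0725%) outside.

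The V gene with most TRBC members was Trbv17 in control IgG and Trbv16 in αCSF1R and IL-10-Fc, and some leading genes were near their share of all clonotypes. In the control IgG tumor the leading genes were Trbv17, with 10 of 76 members (13.2%, against 4.22% of all TRBC clonotypes of that library), Trbv26 with 9 (11.8% against 3.24%), and Trbv13-1 and Trbv19 with 7 each (9.21% against 4.76% and 8.55%). Of the 10 Trbv17 members, 6 encoded the one CDR3 protein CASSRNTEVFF. In the αCSF1R tumor Trbv16 led with 14 of 76 (18.4% against 14.2%), before Trbv5 with 10 (13.2% against 4.85%) and Trbv19 with 8 (10.5% against 10%). Trbv16 also led in the IL-10-Fc tumor, with 5 of 23 members (21.7% against 12.2%), before Trbv14 and Trbv19 with 3 each (13.0% against 4.68% and 8.68%). Of these 5 Trbv16 members, 4 encoded the one CDR3 protein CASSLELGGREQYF. The 3 BF10 members used Trbv3, Trbv16 and Trbv17. The members of control IgG used 18 V genes and those of αCSF1R 17, out of 27 and 23 V assignments in all clonotypes of these libraries.

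**Figure D2:**
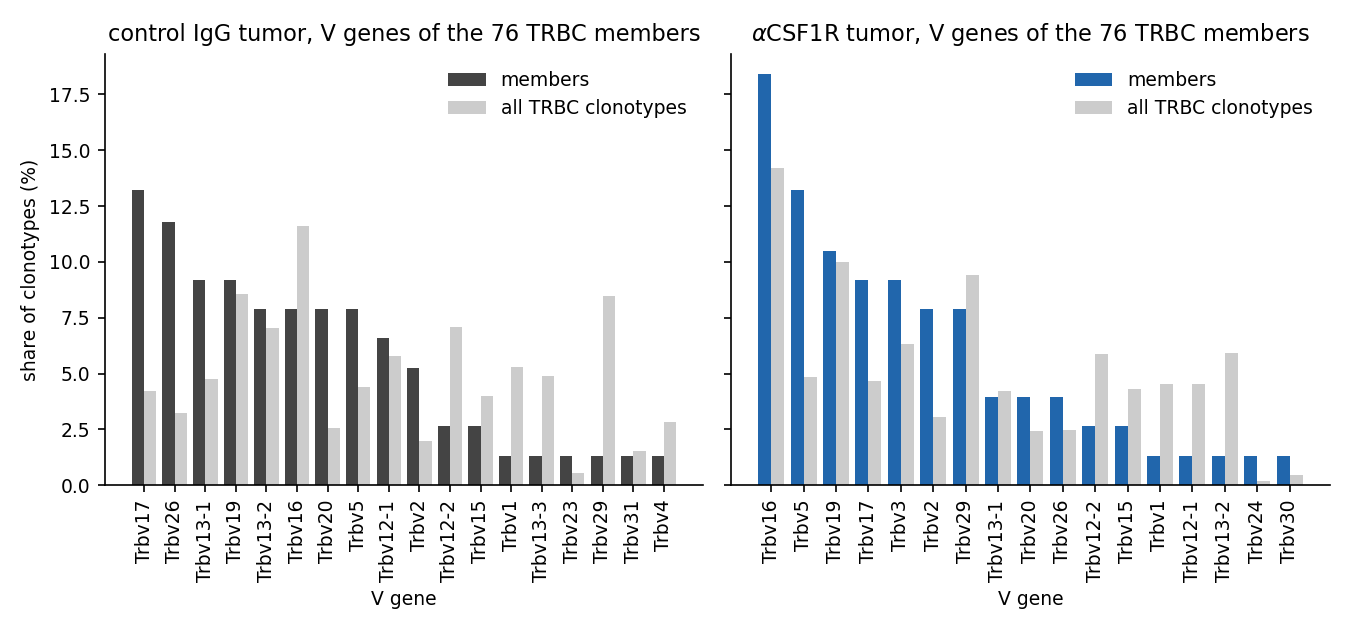
Share of the TRBC members (black or blue bars) and of all TRBC clonotypes (grey bars) with each V gene, for the control IgG tumor and the αCSF1R tumor with 76 members each. Trbv17 and Trbv26 stand above their grey bars in control IgG, and Trbv5 does in αCSF1R.

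Among J genes of the TRBC members, Trbj2-7 led in every tumor library, with 18 of 76 members in control IgG (23.7% against 20.4% of all TRBC clonotypes), 20 of 76 in αCSF1R (26.3% against 19.3%), 10 of 23 in IL-10-Fc (43.5% against 21.5%) and 2 of 3 in BF10. Of the 10 in IL-10-Fc, 4 encoded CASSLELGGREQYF. Trbj1-1 followed with 11 members in control IgG (14.5% against 10.8%) and 13 in αCSF1R (17.1% against 11.7%). Trbj2-1 was next but below its share of all clonotypes, with 9 in control IgG (11.8% against 13.6%) and 10 in αCSF1R (13.2% against 15.8%). Next in the IL-10-Fc tumor were Trbj1-1, Trbj1-4, Trbj2-1 and Trbj2-3 with 2 members each (8.70%, against 8.51%, 5.91%, 14.6% and 8.98%).

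The TRAC members were spread over more genes, with 46 V assignments among 76 members in control IgG and 44 among 79 in αCSF1R. Trav16n led in control IgG with 6 members (7.89% against 2.98% of all TRAC clonotypes), then Trav6d-6 with 5 (6.58% against 2.11%). Trav7d-4 and Trav9n-2 had 4 each (5.26% against 0.845% and 2.87%). Trav7d-2 led in αCSF1R with 7 (8.86% against 3.09%). Among J genes, Traj23 led in control IgG with 8 members (10.5% against 4.88%) before Traj33 with 6 (7.89% against 3.49%). Traj33 led in αCSF1R with 8 (10.1% against 5.31%), before Traj48 with 7 (8.86% against 3.83%) and Traj30 with 6 (7.59% against 6.13%). Traj22 led in the IL-10-Fc tumor with 4 of 15 members (26.7% against 6.92%), before Traj33 with 3 and Traj31 with 2. In the BF10 tumor 2 of the 3 TRAC members used Traj22. The V assignments of IL-10-Fc with most members were Trav13d-1, Trav5d-4 and the pair Trav14-2 or Trav14n-2, at 2 each.

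Median CDR3 lengths of the members lay within 1 residue of those of all clonotypes, whereas the median number of bases in the junction differed from that of all clonotypes in IL-10-Fc and BF10. The median TRBC CDR3 of the members had 14 residues in all 4 tumor libraries, counted from the first cysteine to the last phenylalanine, and that of all TRBC clonotypes also had 14. Lengths ran from 7 to 17 residues in control IgG and from 9 to 18 in αCSF1R. TRAC members had a median of 14 residues in control IgG, IL-10-Fc and BF10 and 13 in αCSF1R, against 14 over all TRAC clonotypes of each. The median number of bases between the germline V and J ends of TRBC members was 10 in control IgG and αCSF1R, 12 in IL-10-Fc and 13 in BF10, against 10 over all clonotypes of each library. In TRAC, which has no D segment, the members had a median of 3 such bases in control IgG and αCSF1R, 2 in IL-10-Fc and 0 in BF10, against 3 over all clonotypes of each. TRAC members with no base between V and J numbered 12 of 76 in control IgG (15.8% against 12.4% of all clonotypes), 14 of 79 in αCSF1R (17.7% against 11.8%), 4 of 15 in IL-10-Fc (26.7% against 11.2%) and 2 of 3 in BF10 (66.7% against 10.6%). The 2 in BF10 are 1 CDR3 sequence under 2 V assignments. Few junction bases were not particular to members. Among TRAC clonotypes with 0.01% to 0.1% of the UMIs, 15.0%, 13.7%, 37.6% and 46.6% had none, in the same order. The median of that class was 3 bases in control IgG and αCSF1R and 1 in IL-10-Fc and BF10.

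Short runs of 4 residues shared by members followed the germline segments in TRAC. All members with NQGK or YNQG in the control IgG tumor used Traj23 (8 members, 10.5% against 4.55% and 4.51% of all TRAC clonotypes), and all with DSNY used Traj33 (6 members, 7.89% against 2.41%). NTGK, in 7 members (9.21% against 7.82%, near the background), and GNTG, in 6 (7.89% against 3.58%), came with Traj37 or Traj27. In αCSF1R the runs were SNYQ (8.86% of members against 4.57%) and DSNY (5.06% against 2.88%) with Traj33. YGNE and GNEK (8.86% against 3.21% and 3.42%) came with Traj48, and DNYA (5.06% against 1.03%) with Traj26. In IL-10-Fc they were SSGS, SGSW and GSWQ with Traj22, and DSNY and SNYQ with Traj33.

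In TRBC most of the shared runs overlapped the stretch between the germline V and J ends. RNTE and SRNT of the control IgG tumor were in the same 6 members, all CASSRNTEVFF (7.89% of members against 0.613% of all TRBC clonotypes for SRNT). They span the joint of V and J, where the members with this protein have only 0 to 4 bases between the germline ends. PGQG was in 4 members of control IgG (5.26% against 1.66%), with Trbv19, Trbv13-2 and Trbv26, and SPPG in 4 (5.26% against 0.655%), with Trbv26 and Trbv5. GQG is one reading frame of the segment Trbd1. In αCSF1R the run DWGG, which is the residue run of one Trbd2 frame, was in 6 members with 6 proteins and 4 V genes (7.89% against 2.65%), and it was also in 2 members of control IgG. These included the Trbv16-Trbj2-5 members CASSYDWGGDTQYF (1496 UMIs), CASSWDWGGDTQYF (964 UMIs) and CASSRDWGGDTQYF (62 UMIs), which differ at 1 residue. The last of these is 1 base from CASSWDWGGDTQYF, at less than 0.1 of its UMIs, so a sequencing or amplification error was not tested for it. NYAE, encoded by Trbj2-1, was in 6 other αCSF1R members (7.89% against 4.85%). The runs SLEL, LELG and ELGG were held by 4 members of IL-10-Fc and by 4 of αCSF1R, against 0.152%, 0.130% and 0.159% of all TRBC clonotypes in IL-10-Fc and 0.882%, 0.882% and 1.04% in αCSF1R. The 4 in IL-10-Fc all encode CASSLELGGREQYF, whereas the 4 in αCSF1R have 4 proteins. LGGR and GGRE were in 5 members of IL-10-Fc (21.7% against 0.936% and 0.436%), these 4 and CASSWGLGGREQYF of Trbv3. No run reached 3 members in the BF10 tumor.

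Groups of members linked by CDR3s that differ at 1 residue were found in control IgG and αCSF1R. Links were chained, so some pairs within a group differ at more residues. In TRBC the control IgG tumor had 1 such group of 3 members, all Trbv2-Trbj2-7: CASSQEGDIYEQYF with 676 UMIs, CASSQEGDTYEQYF with 268 and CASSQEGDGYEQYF with 164. A relative, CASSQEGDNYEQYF of Trbv2, was a member in αCSF1R with 850 UMIs. The αCSF1R tumor had 3 groups with 9 members. Besides the DWGG group these were the 4 members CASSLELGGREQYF, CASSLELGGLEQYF, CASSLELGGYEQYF and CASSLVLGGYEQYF with 573 UMIs in all, and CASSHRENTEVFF with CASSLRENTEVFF (436 UMIs in all). In TRAC there were 5 groups with 10 members in control IgG and 7 groups with 21 members in αCSF1R. The largest by UMIs in αCSF1R was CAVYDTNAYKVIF, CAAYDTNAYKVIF and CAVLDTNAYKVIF, all with Traj30, at 2474 UMIs.

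Several members encoded one CDR3 protein by different nucleotide sequences, and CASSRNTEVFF was the clearest of these. It joins Trbv17 (GRCm38 chr6:41163062-41163556, plus strand) to Trbj1-1 (chr6:41533864-41533911). It was carried by 11 members: 6 in control IgG, 3 in αCSF1R, and 1 each in IL-10-Fc and BF10, from several nucleotide versions that differ at 1 to 3 bases, with 0 to 4 bases between the germline ends. Version 3 is made of germline V and J bases alone, and it was a member in all 4 tumor libraries, with 924 UMIs in control IgG, 384 in IL-10-Fc, 233 in αCSF1R and 199 in BF10. Versions 1, 4, 5 and 6 were members in control IgG alone, with 1843, 568, 298 and 270 UMIs, and version 7 in αCSF1R alone, with 265.

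Version 4 was listed in no other library, and version 1 had 1 UMI in the IL-10-Fc tumor, 5 in the IL-10-Fc tdLN and 1 in the BF10 tdLN. The versions thus had different ranks in the control IgG and αCSF1R tumors. Over all its versions the protein was listed in all 12 libraries, from 44 nucleotide sequences. It held 5.51% of the TRBC UMIs of the control IgG tumor, 0.358% in IL-10-Fc, 2.01% in αCSF1R and 0.145% in BF10. In the tdLNs it held 0.0562%, 0.0681%, 0.0218% and 0.0216% in the same order. In the spleens it held 3, 14, 4 and 4 UMIs. Its share was higher in the tumor than in the tdLN and spleen of each treatment. The protein was named for members selected on a high tumor count, and the reason for the difference was not tested. The portal's error correction is not given in the sources used here, and the part of sequencing or amplification error in the versions was not tested.

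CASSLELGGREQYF, from Trbv16 (chr6:41151740-41152230) and Trbj2-7 (chr6:41543810-41543856), was carried by 6 members with 6 nucleotide versions. All 6 have 13 bases between V and J, of which 9 to 11 in a row match the D segment Trbd2, and they vary only in the last glycine codon of the D region and in the arginine codon after it. In the IL-10-Fc tumor versions 1, 2, 4 and 6 were members with 468, 352, 326 and 285 UMIs. Version 3 was a member in αCSF1R (334 UMIs) and was 0 in the other 3 tumors. Version 5 was a member in BF10 (290 UMIs), with 1 UMI in the control IgG tumor. The protein held 1.11% of tumor TRBC UMIs in IL-10-Fc, 1.03% in αCSF1R, 0.204% in BF10 and 0.00192% in control IgG, as a description of values the selection used. In the tdLNs it had 238 UMIs in IL-10-Fc, 111 in BF10, 14 in αCSF1R and 3 in control IgG.

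**Figure D3:**
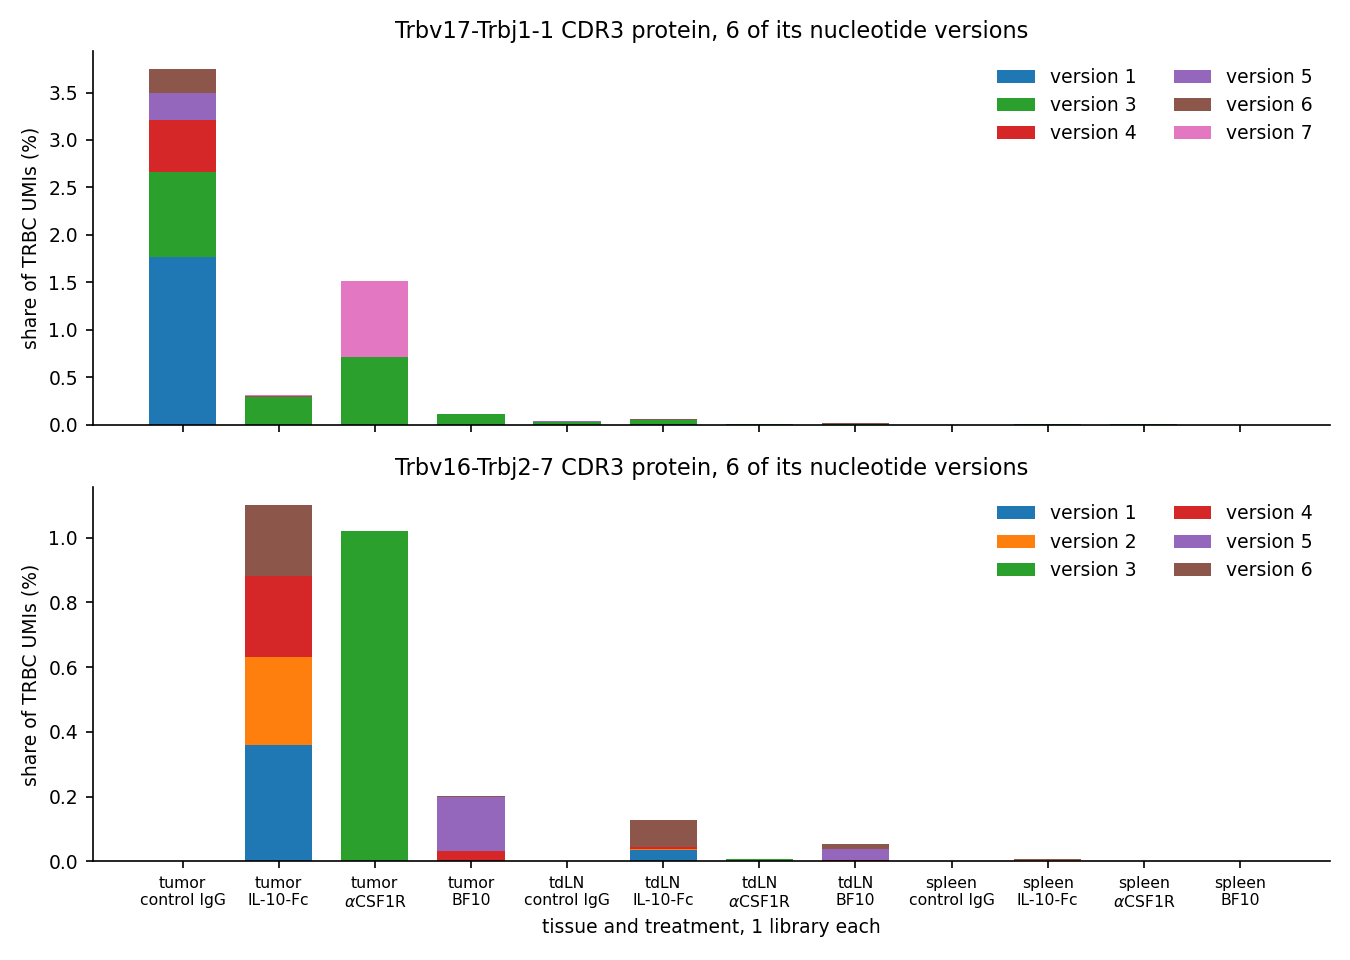
Share of TRBC UMIs held by nucleotide versions of the Trbv17-Trbj1-1 protein (top, 6 versions) and of the Trbv16-Trbj2-7 protein (bottom, 6 versions) in the 12 libraries, stacked, with 1 library per bar. The versions are those with a printed sequence, so the bars at the top show part of the protein's share; the control IgG tumor bar is highest there and near 0 at the bottom, and tdLN and spleen bars are low throughout.

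The other 4 TRBC proteins carried by more than 1 member were each expanded in 2 tumor libraries. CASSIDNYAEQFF (Trbv19-Trbj2-1) had 4434 UMIs in control IgG and 1303 in αCSF1R. The 2 sequences differ at 1 base, and each had 0 UMIs in the other tumor.
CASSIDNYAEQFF, control IgG: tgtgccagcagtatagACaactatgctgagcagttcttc
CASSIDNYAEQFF, αCSF1R: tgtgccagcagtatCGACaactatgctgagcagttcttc

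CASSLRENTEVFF came from Trbv12-1 in control IgG (1211 UMIs) and from Trbv3 in αCSF1R (402 UMIs), with 6 differing bases. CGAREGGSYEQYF (Trbv20-Trbj2-7) had 153 UMIs in control IgG and 481 in αCSF1R, from sequences listed in these single libraries. A Trbv26-Trbj1-4 protein of 15 residues was carried by 2 members of control IgG (1140 and 376 UMIs) and 1 of IL-10-Fc (453 UMIs).

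Members whose protein was also made by a CDR3 of the same library with 2 or more different bases were not more frequent throughout than clonotypes at large. In TRBC they were 10 of 76 in control IgG (13.2% against 9.82% of all clonotypes), 7 of 23 in IL-10-Fc (30.4% against 22.8%), 8 of 76 in αCSF1R (10.5% against 5.82%) and 1 of 3 in BF10 (28.0% of all). In TRAC they were 10 of 76 in control IgG (13.2% against 13.9%), 4 of 15 in IL-10-Fc (26.7% against 29.4%), 4 of 79 in αCSF1R (5.06% against 8.31%) and 2 of 3 in BF10 (33.8% of all). These shares lie near the background, and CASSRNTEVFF and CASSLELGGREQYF were picked out after their values were seen.

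The same clonotype in a tumor library of another treatment was rare in TRBC and more common in TRAC. In TRBC 8 of 76 control IgG members were listed in another tumor (6.54% of all clonotypes of that library were), 5 of 23 of IL-10-Fc (4.45%), 15 of 76 of αCSF1R (7.70%) and 2 of 3 of BF10 (2.85%). In TRAC these were 17 of 76 (18.5%), 7 of 15 (13.5%), 24 of 79 (17.6%) and 3 of 3 (10%). In none of the 9 libraries of other treatments were 64 of 76 TRBC members of control IgG listed (84.2%, against 82.8% of all clonotypes), 57 of 76 of αCSF1R (75% against 83.3%), 17 of 23 of IL-10-Fc (73.9% against 84.7%) and 1 of 3 of BF10 (33.3% against 86.0%). In TRAC these were 51 of 76 (67.1% against 66.4%), 45 of 79 (57.0% against 67.2%), 8 of 15 (53.3% against 68.7%) and 0 of 3 (69.8% of all), so members lay near or below the share of clonotypes at large. Among the TRBC members was the Trbv5 clonotype with 11032 UMIs, which was listed in the control IgG tumor and tdLN alone.

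In TRAC, 3 clonotypes were members in 3 or 4 tumor libraries, and all 3 consist of germline bases without any between V and J. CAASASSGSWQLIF, from Traj22 (chr14:54197248-54197307) with a Trav14 gene, was listed in all 12 libraries under both V assignments. For Trav14d-3-dv8 or Trav14n-3 it had 95 tumor, 79 tdLN and 156 spleen UMIs in control IgG, 120, 137 and 163 in IL-10-Fc, 39, 44 and 118 in αCSF1R, and 174, 41 and 117 in BF10. Over all sequences and V genes this protein held 0.283% to 0.717% of tumor TRAC UMIs, 0.414% to 0.461% in the tdLNs and 0.530% to 0.799% in the spleens, so its tumor shares lay within or near the range of the other tissues.
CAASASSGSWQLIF, shared by all libraries: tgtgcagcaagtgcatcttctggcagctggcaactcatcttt
Trav5d-4-Traj53, expanded in 3 tumors: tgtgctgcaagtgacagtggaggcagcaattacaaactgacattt

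The Trav5d-4-Traj53 clonotype (Trav5d-4 at chr14:53001713-53002232) differed from this. It had 2296 UMIs in the control IgG tumor, 151 in IL-10-Fc, 52 in αCSF1R and 19 in BF10, but 6, 13, 0 and 0 in the tdLNs and 4, 0, 0 and 0 in the spleens. A relative that differs at 1 residue was a member in BF10 (123 UMIs), with 70 and 62 UMIs in the control IgG and IL-10-Fc tumors and 0 in all 8 tdLN and spleen libraries under that V gene. Under another V assignment it was a control IgG member with 86 UMIs, 1 base from the clonotype with 2296. Under these V assignments both were seen mainly in tumor libraries, on whose counts members were selected. Over all sequences and V genes the protein of the first was listed in all 12 libraries. It held 2.97% of tumor TRAC UMIs in control IgG, 0.168% in IL-10-Fc, 0.803% in αCSF1R and 0.0229% in BF10. Its shares were 0.00761% to 0.0197% in the tdLNs and 0.0165% to 0.0338% in the spleens, a range that held the BF10 tumor share. The protein of the relative was listed in 11 libraries. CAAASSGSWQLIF, the leading IL-10-Fc α chain with 1971 tumor UMIs, was also listed in 10 other libraries, with 96 UMIs in its own tdLN, 44 in the αCSF1R spleen and 5 to 31 in the rest.

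TRBC members were found in the tdLN of their own treatment more often than in other tdLNs. In control IgG 26 of 76 members were listed there (34.2%), against 5.18% of all TRBC clonotypes of that tumor and 10.4% of those with 0.01% to 0.1% of the UMIs. In the tdLNs of IL-10-Fc, αCSF1R and BF10 the same members were listed 6, 4 and 4 times (7.89%, 5.26% and 5.26%, against 4.93%, 6% and 5.81% of all clonotypes). In IL-10-Fc 20 of 23 were listed (87.0%, against 4.65% of all and 42.7% of the next class), and 2, 1 and 3 in the tdLNs of control IgG, αCSF1R and BF10 (8.70%, 4.35% and 13.0%, against 2.88%, 5.24% and 5.29%). In αCSF1R 46 of 76 were listed (60.5%, against 13.2% and 16.5%), and 6, 5 and 10 in those of control IgG, IL-10-Fc and BF10 (7.89%, 6.58% and 13.2%, against 4.25%, 5.29% and 6.10%). In BF10 all 3 were listed (5.48% of all clonotypes and 66.1% of the next class), and 1 in each other tdLN, which was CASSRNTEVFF version 3 each time. The next class was likewise listed more often in its own tdLN, so this was not particular to members. In tdLNs of other treatments that class was listed at 6.67% to 8.41% for control IgG and 8.18% to 14.5% for IL-10-Fc. For αCSF1R it was 4.57% to 7.46%, and for BF10 5.08% to 8.47%. The tdLN libraries differed in depth, from 124488 TRBC UMIs in control IgG to 210616 in αCSF1R.

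**Figure D4:**
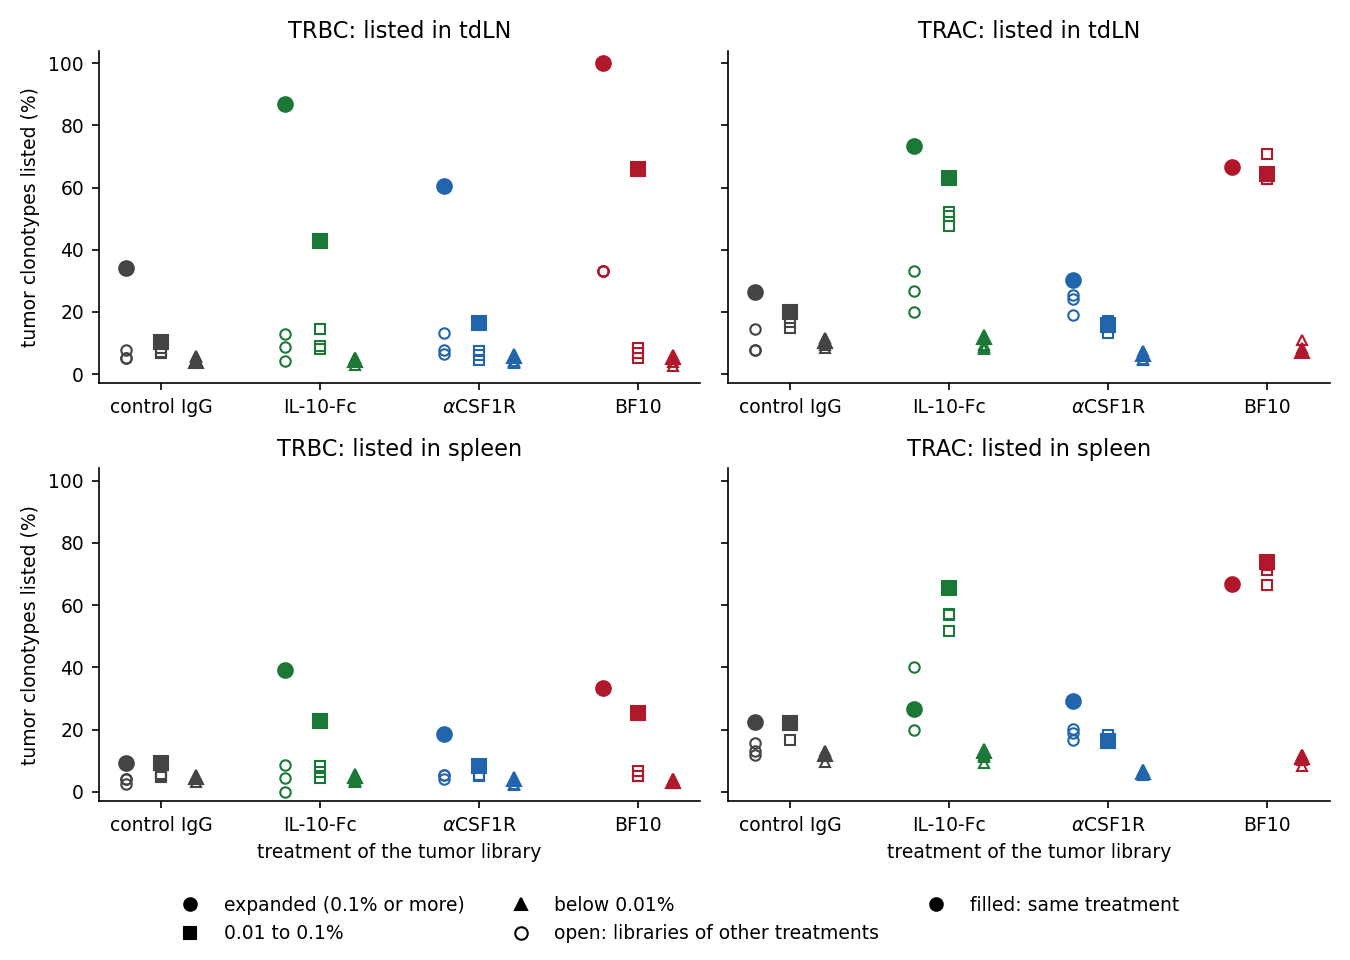
Percent of tumor clonotypes listed in tdLN (top) and spleen (bottom) libraries, TRBC left and TRAC right, by tumor share class (shapes); filled symbols are the library of the same treatment and open symbols the 3 of other treatments. In TRBC the filled circles of tdLN stand at 34.2%, 87.0%, 60.5% and 100%, above the open circles of the same tumor, and in TRAC filled circles stand at 26.3%, 73.3%, 30.4% and 66.7%.

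The tdLN shares of these members were low. No TRBC member of control IgG, IL-10-Fc or αCSF1R had a higher share in its tdLN than in its tumor, and the listed members had a median of 3 UMIs in the control IgG tdLN, 4.5 in αCSF1R and 16 in IL-10-Fc. Selection at 0.1% or more of the tumor UMIs favors this direction. The highest tdLN share of a TRBC member was 0.0827%, in IL-10-Fc. Summed, the members held 206 UMIs of the control IgG tdLN (0.165%, 0.144 to 0.190), 537 in IL-10-Fc (0.290%, 0.267 to 0.316), 438 in αCSF1R (0.208%, 0.189 to 0.228) and 222 in BF10 (0.109%, 0.0954 to 0.124). In tdLNs of other treatments, the members of control IgG held 0.0138% to 0.0648%, those of IL-10-Fc 0.00522% to 0.0289%, and those of αCSF1R 0.0225% to 0.0632%. Across members, rank by tumor UMIs and rank by tdLN UMIs had a Spearman rho of 0.31 in control IgG (n = 76), 0.37 in αCSF1R (n = 76) and 0.12 in IL-10-Fc (n = 23). This is a description, since members of a pair of libraries share depth and mice. Members not listed in the tdLN, tied at 0, numbered 50, 30 and 3 in the same order. For the spleen rho was 0.028, -0.016 and 0.095, and for TRAC members in the tdLN -0.035, 0.084 and 0.52.

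The member with most tdLN UMIs was the largest of the tumor in control IgG and BF10 but not in IL-10-Fc and αCSF1R. In control IgG the leading Trbv5 clonotype had 56 UMIs in the tdLN (0.0450%, 0.0346 to 0.0584) against 10.6% in the tumor, followed by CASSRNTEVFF version 3 with 29. In IL-10-Fc the first was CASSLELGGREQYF version 6, with 153 tdLN UMIs (0.0827%) and 285 in the tumor (0.219%), followed by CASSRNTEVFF version 3 with 95. The first in BF10 was the Trbv3 clonotype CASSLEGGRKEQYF, with 126 (0.0617%) and 296 (0.169%), followed by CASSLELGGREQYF version 5 with 73. In αCSF1R these were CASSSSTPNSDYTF (Trbv16-Trbj1-2) with 69 tdLN and 1053 tumor UMIs, and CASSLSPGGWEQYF (Trbv26-Trbj2-7) with 35 and 424. Some of the largest tumor members were missing from the tdLN: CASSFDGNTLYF, first in αCSF1R with 1636 tumor UMIs, had 0 of 210616 UMIs there, which allows a share of up to 0.00142%. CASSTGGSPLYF of control IgG, with 1950 tumor UMIs, had 0 of 124488, which allows up to 0.00241%.

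**Figure D5:**
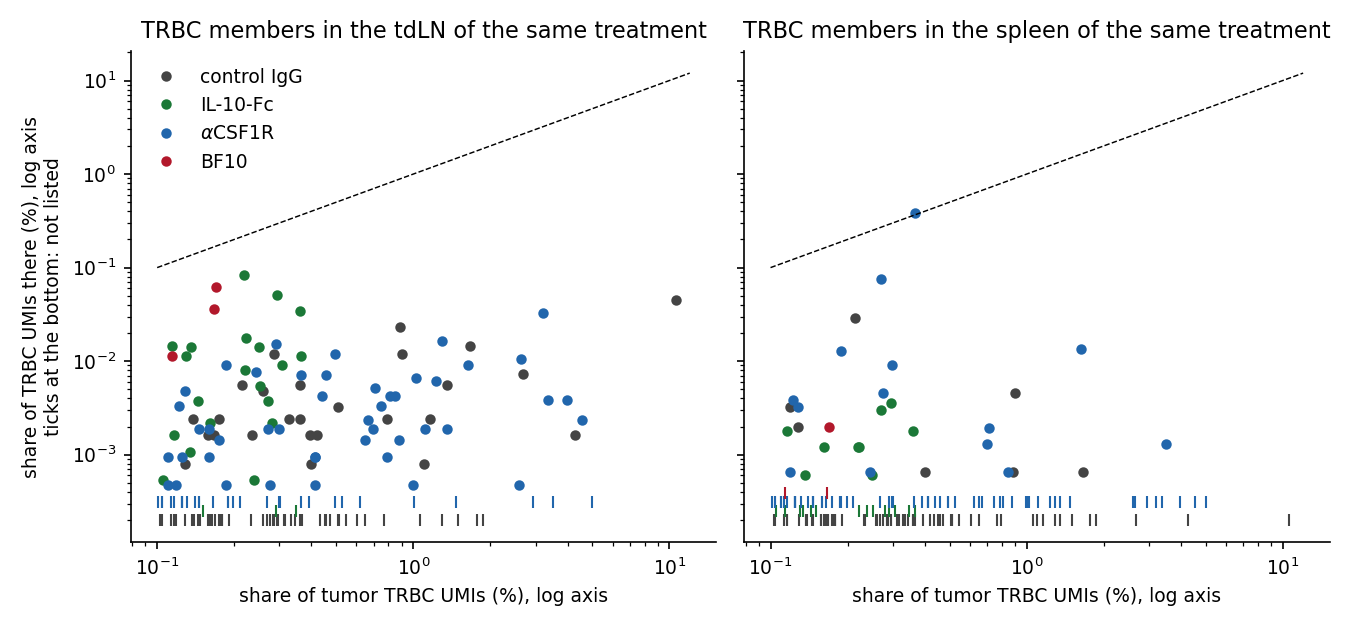
Share of TRBC UMIs in the tdLN (left) or spleen (right) of the same treatment against the share in the tumor for each TRBC member, both on log axes; ticks at the bottom are members not listed there and the dashed line marks equal shares. All tdLN points lie below the line, and 1 αCSF1R clonotype reaches it in the spleen at 0.366% of tumor and 0.388% of spleen UMIs.

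In the spleen of the same treatment fewer TRBC members were listed. These were 7 of 76 in control IgG (9.21%, against 5.32% of all clonotypes), 9 of 23 in IL-10-Fc (39.1% against 5.06%), 14 of 76 in αCSF1R (18.4% against 6.74%) and 1 of 3 in BF10 (3.59% of all). The 0.01% to 0.1% class was listed at 9.19%, 22.7%, 8.30% and 25.4%, so the control IgG members were level with it. Summed, the members held 62 spleen UMIs in control IgG, 25 in IL-10-Fc, 800 in αCSF1R and 3 in BF10. Of the 800 in αCSF1R, 600 belonged to 1 Trbv1-Trbj2-1 clonotype of 17 residues, which had 120 tumor and 15 tdLN UMIs. Its spleen share was 0.388% (0.358 to 0.420) and its tumor share 0.366% (0.306 to 0.437), so the intervals overlap. It was listed in no library of another treatment. The next was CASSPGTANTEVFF (Trbv3-Trbj1-1), with 117 spleen UMIs (0.0757%) and 89 in the tumor (0.271%).
Trbv1-Trbj2-1, αCSF1R tumor and spleen: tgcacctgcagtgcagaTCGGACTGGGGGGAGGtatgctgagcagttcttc

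In control IgG the spleen was led by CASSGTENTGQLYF (Trbv15-Trbj2-2) with 44 UMIs and 223 in the tumor, before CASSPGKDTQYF (Trbv29-Trbj2-5) with 7 and 939. The highest spleen value of any IL-10-Fc TRBC member was 6 UMIs, for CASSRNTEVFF version 3, then 5 for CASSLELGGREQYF version 2. The BF10 clonotype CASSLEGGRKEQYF had 3 spleen UMIs, and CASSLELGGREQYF version 5 had 0.

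In the tdLN of the same treatment 20 of 76 TRAC members were listed in control IgG (26.3% against 12.6% of all TRAC clonotypes), 11 of 15 in IL-10-Fc (73.3% against 12.5%), 24 of 79 in αCSF1R (30.4% against 12.9%) and 2 of 3 in BF10 (7.75% of all). Clonotypes with 0.01% to 0.1% of the tumor UMIs were listed there at 19.9%, 63.1%, 15.9% and 64.5% in the same order. High listing in IL-10-Fc and BF10 was thus not particular to members. In the tdLNs of IL-10-Fc, αCSF1R and BF10 the control IgG members were listed 11, 6 and 6 times (14.5%, 7.89% and 7.89%, against 13.1%, 10.8% and 9.69% of all TRAC clonotypes). The IL-10-Fc members were listed 4, 5 and 3 times in those of control IgG, αCSF1R and BF10 (26.7%, 33.3% and 20%, against 9.72%, 9.19% and 8.44%). The αCSF1R members were listed 19, 20 and 15 times in those of control IgG, IL-10-Fc and BF10 (24.1%, 25.3% and 19.0%, against 11.6%, 13.7% and 10.3%), and 2 of the 3 BF10 members in each other tdLN. In the spleen the counts were 17 of 76 (22.4% against 14.1%), 4 of 15 (26.7% against 13.6%), 23 of 79 (29.1% against 13.0%) and 2 of 3 (11.5% of all). Among TRAC clonotypes with 0.01% to 0.1% of the tumor UMIs the spleen listed 65.6% in IL-10-Fc and 74.0% in BF10, above the members.

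The TRAC sums rested on few clonotypes. In the control IgG tdLN 187 of the 349 UMIs of members, and in its spleen 355 of 451, were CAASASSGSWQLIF under its 2 V assignments. In IL-10-Fc these were 316 of 511 in the tdLN and 395 of 404 in the spleen, and in BF10 all 108 and all 302. Apart from it, the control IgG clonotype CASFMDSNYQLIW (Trav6d-3-Traj33) had 58 tdLN and 141 tumor UMIs with 3 in the spleen, and was listed in no library of another treatment. In αCSF1R, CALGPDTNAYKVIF (Trav6d-6-Traj30) had 160 spleen UMIs (0.146%) and 56 in the tumor (0.237%), and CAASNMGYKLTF (Trav7d-2-Traj9) had 26 in the tdLN, 128 in the spleen and 27 in the tumor, or 0.0395%, 0.116% and 0.114%. The latter was listed in all 12 libraries, whereas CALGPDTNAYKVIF was listed in the αCSF1R libraries alone.

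Of the TRBC members of control IgG, 6 of 76 were listed in both the tdLN and the spleen of their treatment (7.89%, against 1.46% of all TRBC clonotypes), 20 in the tdLN alone (26.3% against 3.72%), 1 in the spleen alone (1.32% against 3.87%) and 49 in neither (64.5% against 91.0%). In αCSF1R these were 12 (15.8% against 3.97%), 34 (44.7% against 9.19%), 2 (2.63% against 2.77%) and 28 (36.8% against 84.1%). In IL-10-Fc they were 9 (39.1% against 1.45%), 11 (47.8% against 3.20%), 0 (3.62% of all) and 3 (13.0% against 91.7%). TRBC members listed in their own tumor library and nowhere else were 45 in control IgG (59.2% against 79.0%), 22 in αCSF1R (28.9% against 74.7%), 3 in IL-10-Fc (13.0% against 81.5%) and 0 in BF10 (82.9% of all). In TRAC they were 39 (51.3% against 62.5%), 34 (43.0% against 63.0%), 3 (20% against 64.2%) and 0 (66.4% of all). Members were thus listed in a single library at lower shares than clonotypes at large in every library and chain. Against clonotypes with 0.01% to 0.1% of the tumor UMIs this held for TRBC in every library, but not throughout for TRAC. In TRAC that class stood at 51.5% in control IgG, 54.7% in αCSF1R, 17.6% in IL-10-Fc and 9.46% in BF10. The TRAC members were level with it in control IgG and not below it in IL-10-Fc.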

How the data were processed

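CD8+ T cells (per the cell type label) were selected with magnetic beads, and TCR cDNA was tagged by ligation of a 12-base UMI, as the study's methods state. The authors grouped reads by UMI in the Qiagen analysis portal and deposited, per clonotype, UMI counts at minimum read numbers, not normalized, and a fraction, the count at 3 or more reads over the total of the library and chain. The submitters' processing notes name the build mm10, and the portal's germline reference and error correction are not given in the sources used here. Counts at 3 or more reads were used, and no column of per-sample values was left out. Germline V and J ends of CDR3s came from RefSeq GRCm38.p6 segments (197 named genes had one, and Trav9-3 had none), by the longest matching start over the V subgroup and the longest matching end. A match by chance shortens the stretch between them. Gene positions are those of GENCODE M21. Clonotypes were compared between libraries by chain, V, J and CDR3 nucleotides. Intervals are Wilson intervals at 95%, and 0 counts were bounded at 3 UMIs. With 1 library per group no test was run. Named were the 5 leading members per library and chain, those next to the threshold, the 2 highest in the own tdLN and spleen, members shared by tumors, CDR3 proteins of more than 1 member, the 3 leading V and J genes, and runs of 4 residues in 3 or more members, leaving out 3 residues at each end. The members and lists were chosen with earlier results of these data known. Python 3.11.15, pandas 2.3.3 and scipy 1.17.1 were used, and scripts were tested on simulated data. One CDR3 sequence among the members is not reported here.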

Additional observations from a re-analysis of the deposited data

Results flagged for a closer look

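UMIs of TRGC and TRDC, which entered no comparison of the expanded clonotypes, were above the control IgG library of the same tissue in 4 libraries, with intervals that did not overlap. They were 8.93% of all UMIs in the αCSF1R tumor against 4.27% in control IgG, 5.49% in the IL-10-Fc tdLN and 6.34% in the BF10 tdLN against 5.27%, and 2.30% in the BF10 spleen against 1.96%. Shares were below control IgG, also without overlap, in the other 5: 0.873% in the IL-10-Fc tumor, 0.898% in the BF10 tumor, 4.96% in the αCSF1R tdLN, and 0.677% (IL-10-Fc) and 1.79% (αCSF1R) in the spleen. With 1 library per group these differences were not tested.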

How the results depend on the processing

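Under the alternatives, 125 values stayed close to the main one and 53 did not, where close means within 1.5 times for a number of members, within the 95% counting interval for a share or percentage, and within the 95% interval of the median for a length (the whole range with 5 or fewer members). At a threshold of 0.2% the TRBC members numbered 50 in control IgG, 14 in IL-10-Fc, 48 in αCSF1R and 0 in BF10, with 46.3%, 3.92%, 57.5% and 0% of UMIs, and the TRAC members 40, 4, 37 and 0, with 34.3%, 2.88%, 46.5% and 0%. At that threshold 70.8% of αCSF1R TRBC and 100% of IL-10-Fc TRAC members were listed in their tdLN, and BF10 gave no length or listing. With 7 reads per UMI the IL-10-Fc TRBC share was 4.95%. With the CDR3 nucleotides alone as clonotype, the TRAC share was 40.3% in control IgG, 5.43% in IL-10-Fc and 1.02% (5 members) in BF10, tdLN listing of TRAC was 38.2%, 44.3% and 100% in control IgG, αCSF1R and BF10, and spleen listing 44.3% in αCSF1R. Merging CDR3s 1 base from one with 10 times their UMIs gave TRAC shares of 40.2% in control IgG, 5.54% in IL-10-Fc, 54.2% in αCSF1R and 1.39% (7 members) in BF10, and TRBC shares of 51.1%, 5.25% and 63.0% in the first 3. By CDR3 protein alone, tdLN listing was 46.1% (TRBC) and 52.6% (TRAC) in control IgG, 77.6% and 64.6% in αCSF1R, and 100% in BF10 TRAC. Spleen listing by protein was 28.9% and 47.4% in control IgG, 34.2% and 68.4% in αCSF1R, 73.3% in IL-10-Fc TRAC and 100% in BF10 TRAC. Members seen in another tumor by protein were 30 TRBC and 43 TRAC in control IgG, 34 and 54 in αCSF1R, and 12 TRBC in IL-10-Fc. At 2 or more UMIs they were 5 TRBC in control IgG and 1 in BF10. At the smallest UMI total all expected counts and listing percentages stayed within these limits, with 54.9% of αCSF1R TRBC members listed in the tdLN. Chains alone, 1 library of 3 mixed mice per group and UMIs from unequal depth limit what the counts can show. No paired analysis was possible because each group is 1 library, so the groups compared share fewer than 2 replicate numbers, and no result comes from a test. A model over tissues with treatment as a block was not run, since members were selected on the tumor counts.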
